A study of Homo sapiens with 27 samples.

Results

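Cytosolic tRNA-Asn carries asparagine to the ribosome and has the anticodon GTT, written as DNA. Its pseudouridine (Ψ) sites were taken as every listed site of a tRNA whose name starts with Asn-, which gave 29 of the 705 cytosolic sites and 12 of the 250 cytosolic tRNAs. The 12 are isodecoders of Asn-GTT, that is, tRNAs with the same anticodon and different bodies, and Asn-GTT-1 to Asn-GTT-26 are shortened here to GTT-1 to GTT-26. The sites lie at position 20 (4 isodecoders), position 28 (10), position 39 (1), position 50 (2), position 55 (11) and position 64 (1).

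Ψ was measured with PRAISE in small RNA of HEK293T, a cell line derived from human embryonic kidney. In PRAISE a bisulfite-type reagent forms an adduct with Ψ that the reverse transcriptase skips, which leaves a deletion in the read, so the level of a site is the share of covering reads that have a deletion, in percent. A PUS1 knockout (KO), a PUS7 KO, a TRUB1 KO and wild-type (WT) cells were compared, each with 2 treated libraries and 1 untreated library, which make up 12 of the series' 27 samples. All libraries, untreated ones included, were made from 300 ng of small RNA that the enzyme AlkB had demethylated (2 molar equivalents), of which 100 ng stayed untreated, and the way the KO lines were made is not given in the sources used here. The treated pairs are technical replicates, so every p-value measures only the spread between these libraries, and the untreated libraries have no replicate.

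Ψ is made from uridine within the RNA chain by pseudouridine synthases, each of which recognises its own set of positions. In human cytosolic tRNA, PUS1 is known for positions 27 and 28 at the top of the anticodon stem, PUS7 for position 13 in the D arm and position 35 in the anticodon, and TRUB1 for position 55 in the T loop, where PUS10 can also act. No tRNA-Asn site is listed at the known PUS7 positions.

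The genes of 2 isodecoders show where the sites fall in the molecule, and they are printed because 1 of their differences falls on the base listed as position 64, a site that GTT-6 has and GTT-4 has not. The sequences are from RefSeq (GRCh38.p14), 5′ to 3′, without the CCA end, and capitals mark the bases of the listed sites.
GTT-4: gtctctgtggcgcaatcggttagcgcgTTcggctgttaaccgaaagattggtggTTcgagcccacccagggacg
GTT-6: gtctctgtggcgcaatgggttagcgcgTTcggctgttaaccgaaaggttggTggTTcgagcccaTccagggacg
The GTT-4 gene, TRN-GTT4-1, lies at chr1:16889677-16889750 on the plus strand, and the GTT-6 gene, TRN-GTT6-1, at chr1:143735920-143735993 on the minus strand. Both are 74 bases long and 71 bases are identical. With bases counted from 1 at the 5′ end and the GTT-4 base given first, the 3 differences are C17G, A47G and C65T, and the last puts a T at the base listed as position 64 in GTT-6. Bases 28 and 29, and bases 55 and 56, are T in both genes, so a deletion there cannot be placed on 1 of the pair, and each pair is listed as a single site (positions 28 and 55). Base 52 is T in both genes, yet a site is listed there for GTT-6 and not for GTT-4. The tables label base 52 as position 50, whereas counting from the anticodon at bases 35 to 37 as positions 34 to 36 gives position 51, so the labels are used here as deposited. RefSeq has tRNA genes for 11 of the 12 isodecoders, 19 genes in all, of which 15 are on chromosome 1.

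Over the tRNA-Asn sites, the treated libraries had between 52 and 346443 covering reads per site, with a median of 8345. The replicate levels differed by a median of 0.359 points in PUS1 KO, 0.763 in PUS7 KO, 0.510 in TRUB1 KO and 0.492 in WT, where a point is 1 percentage point. The thinnest sites were position 28 of GTT-26, with 52 to 109 reads outside PUS1 KO, and position 55 of GTT-24, with 61 to 123 reads. As a check of the labels on other tRNAs, medians at the known positions were 3.26% in PUS1 KO and 38.3% in WT at positions 27 and 28, 0.154% in PUS7 KO and 62.2% in WT at position 13, and 72.3% in TRUB1 KO and 83.2% in WT at position 55. Reads of near-identical isodecoders may have been shared in mapping. Position 55 of GTT-2 and GTT-3 had read numbers in a ratio of 1.01 to 1.03 and levels within 0.104 points of each other in all 8 treated libraries, and GTT-4 and GTT-5 had ratios of 0.909 to 0.960 and levels within 0.407 points. Sites of these pairs may therefore not be independent readings, which was not tested. At position 28 the WT means were 11.8% and 6.67% for GTT-2 and GTT-3, and 16.6% and 10.3% for GTT-4 and GTT-5.

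A tRNA-Asn site was called when the adjusted p of a quasi-binomial test, moderated with limma and Benjamini-Hochberg adjusted over all cytosolic sites, was under 0.05 and the levels differed by at least 10 points. PUS1 KO had 6 of 29 tRNA-Asn sites called lower than WT, where 16% of all tested sites were lower, and 0 called higher, where 7.7% of all were. The 6 were position 28 of GTT-1, GTT-4, GTT-7 and GTT-24, position 39 of GTT-9 and position 20 of GTT-3. At an unadjusted p under 0.05, 15 sites were lower and 4 higher, and both alternative tests, limma on points and Fisher's exact test, called 6 lower and 0 higher. At an adjusted p under 0.05 of any size, 14 were lower and 3 higher, where 29.7% and 26.7% of all tested sites were. PUS7 KO had 0 sites called lower, where 11% of all tested sites were, and 0 called higher, where 2.86% were. At an unadjusted p under 0.05 it had 6 lower and 0 higher, and limma and Fisher's exact test called 0 in either direction. At an adjusted p under 0.05 of any size it had 1 lower and 0 higher, where 15.3% and 6.86% of all tested sites were. TRUB1 KO had 2 sites called lower, position 55 of GTT-25 and position 39 of GTT-9, where 11.1% of all tested sites were lower, and 0 called higher, where 0.428% were. It had 13 lower and 1 higher at an unadjusted p under 0.05, and limma and Fisher's exact test each called 3 lower and 0 higher. At an adjusted p under 0.05 of any size it had 11 lower and 0 higher, where 28.5% and 5.56% of all tested sites were. Shares of all tested sites are not given for the unadjusted p or the alternative tests. The PUS1 KO share of sites called lower is near that of all sites, and the TRUB1 KO share of sites called lower is below it. The 3 comparisons share the WT libraries, so their directions are not independent of each other. The sites are those found in WT, which can favour KO levels below WT at every position described below. Median changes over the 29 sites were -3.40 points in PUS1 KO, -0.0744 in PUS7 KO and -3.02 in TRUB1 KO, against 0.0251, 0.336 and -0.386 points over all tested sites in the same order.

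**Figure D1:**
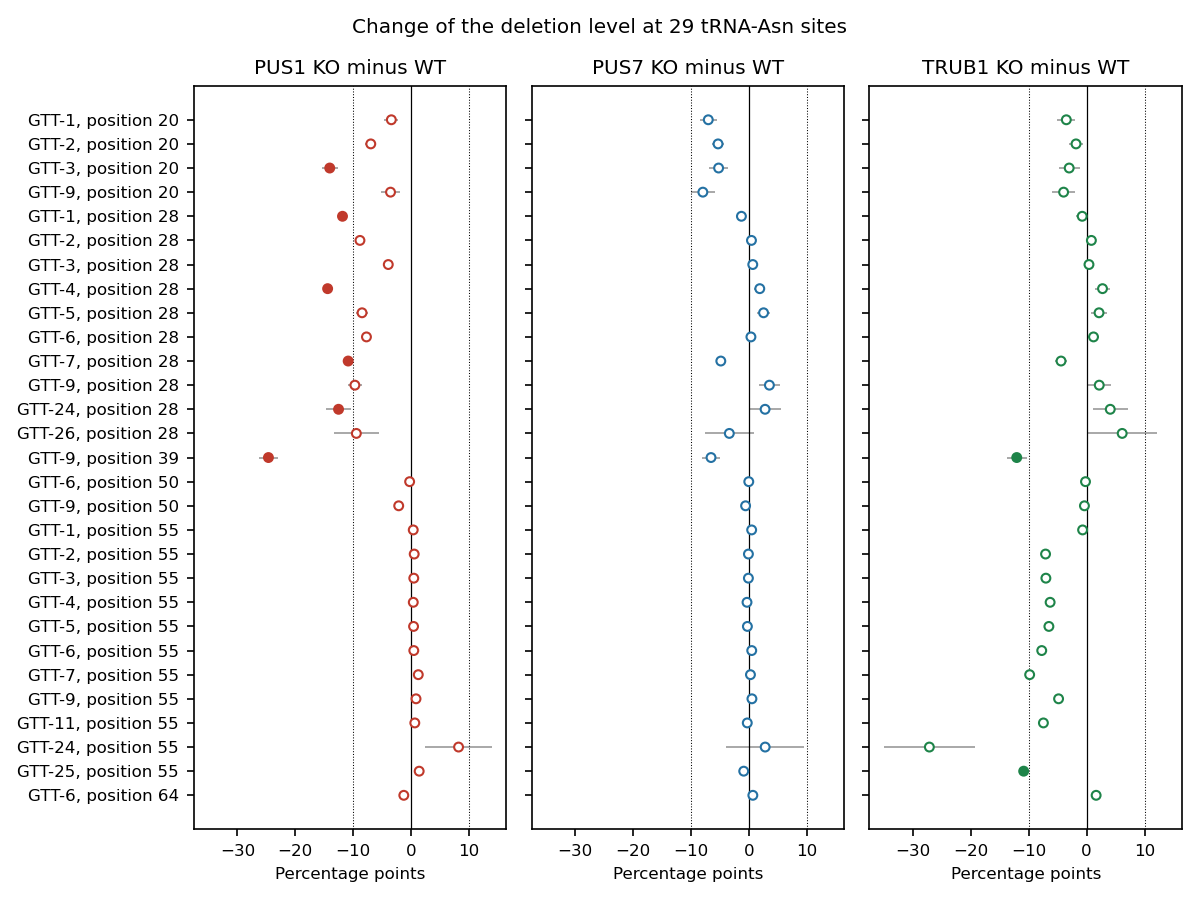
Change of the deletion level (KO minus WT, percentage points) at the 29 tRNA-Asn sites in PUS1 KO, PUS7 KO and TRUB1 KO. Points are differences of means of 2 treated libraries each, bars are standard errors, filled points are called sites and dotted lines mark 10 points. The PUS1 KO changes gather at positions 20, 28 and 39, with position 39 of GTT-9 at -24.7 points, and the TRUB1 KO changes at positions 39 and 55.

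Position 28 sits in the anticodon stem. All 10 tRNA-Asn sites there were lower in both PUS1 KO libraries than in either WT library, where 39.9% of all tested sites were, and all 10 had an adjusted p under 0.05 with all 4 libraries (GTT-26 lost this when either WT library was left out), where 29.7% of all tested sites were lower at that p. PUS1 KO means ran between 0.861% and 5.36%, and WT means between 6.67% and 17.2%. The change was at least 10 points at 4 sites and from -9.70 to -3.93 points at the other 6. GTT-3, with a WT level of 6.67%, could not have lost 10 points. The median ratio of PUS1 KO to WT levels was 0.186, against 0.0951 at the 75 position-28 sites of other tRNAs, where the median WT level was 37.7% and 55 sites were called lower.

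GTT-4 had 2.12% and 2.20% in PUS1 KO, 18.6% and 18.3% in PUS7 KO, 18.6% and 20.1% in TRUB1 KO, and 17.2% and 16.0% in WT. The PUS1 KO libraries stood far below the other 6 libraries, and the PUS7 KO and TRUB1 KO libraries stood above both WT libraries without a call. The PUS1 KO change was -14.4 ± 0.708 points (SE, 2 libraries each, adjusted p = 1.53e-05, moderated quasi-binomial test). GTT-1, which had the highest WT level at this position, had 5.38% and 5.35% in PUS1 KO and 17.1% and 17.4% in WT, a change of -11.8 ± 0.649 points (adjusted p = 3.88e-05). It kept the highest level among the 10 in PUS1 KO. GTT-24 had 1.69% and 1.19% in PUS1 KO and 16.6% and 11.4% in WT, a change of -12.5 ± 2.17 points (adjusted p = 0.00124). Its position 28 had 3483 and 3271 reads in PUS1 KO, against 374 and 343 in WT. In treated libraries these reads came to 514% to 4098% of those at its position 55. The part of these read numbers in the call was not tested. Without WT library 1 the change was -9.93 points, short of the 10 points. The gap between the WT pair was larger than at any other tRNA-Asn site of position 28.

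GTT-7 had 2.48% and 2.68% in PUS1 KO and 14.0% and 12.9% in WT, a change of -10.9 ± 0.811 points (adjusted p = 9.05e-05). The same site had 8.41% and 8.80% in PUS7 KO and 9.15% and 8.89% in TRUB1 KO, below both WT libraries and above both PUS1 KO libraries. Those changes were -4.85 ± 0.904 points in PUS7 KO (adjusted p = 0.0457) and -4.43 ± 1.05 points in TRUB1 KO (adjusted p = 0.0318), under the 10 points asked of a call. In PUS7 KO it was the lone tRNA-Asn site with an adjusted p under 0.05 at any size, where 15.3% of all tested sites were lower at that p. The WT values of GTT-7, GTT-1 and GTT-6 at position 28 stood apart in another way. Their untreated levels lay between 0.162% and 0.300% in the 3 KOs. In untreated WT they were 0.00916% (2 of 21842 reads, 95% Wilson interval 0.00251 to 0.0334), 0.0160% and 0.00463%. In treated libraries, reads covering position 28 of GTT-7 came to 51.3% and 53.7% of those covering position 55 in PUS1 KO, 33.3% and 36.5% in PUS7 KO, 27.3% and 28.6% in TRUB1 KO, and 8.46% and 9.16% in WT. For GTT-4 the PUS7 KO and TRUB1 KO shares were 1.49% to 1.84%, against 1.65% and 1.47% in WT. In PUS1 KO the GTT-4 shares were also above WT, at 8.61% and 9.27%. The part of the untreated levels and read shares in the position-28 values, those of GTT-1, GTT-6 and GTT-7 included, was not tested. Without those 3 isodecoders, 2 of 7 position-28 sites were called lower in PUS1 KO and all 7 had an adjusted p under 0.05 with all 4 libraries (GTT-26 not when either WT library was left out), and the PUS7 KO and TRUB1 KO changes ran from -3.38 to 3.55 and from 0.399 to 6.14 points with 0 at an adjusted p under 0.05.

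The other 6 position-28 sites were lower in PUS1 KO with smaller differences. GTT-9 averaged 1.68% ± 0.339 in PUS1 KO and 11.4% ± 1.73 in WT (SD, n = 2 each), a change of -9.70 points just outside the 10, and it was called without WT library 2 (-10.9 points, adjusted p = 0.00823). GTT-2 averaged 2.95% ± 0.0609 in PUS1 KO and 11.8% ± 0.348 in WT, a change of -8.83 points. GTT-5 averaged 1.86% ± 0.417 in PUS1 KO and 10.3% ± 0.903 in WT, and GTT-6 averaged 3.20% ± 0.213 in PUS1 KO and 10.9% ± 0.0693 in WT. GTT-26 had 1.22% and 0.500% in PUS1 KO and 11.5% and 9.09% in WT on 52 and 66 reads, a change of -9.45 ± 3.89 points (adjusted p = 0.0215). Its adjusted p was 0.110 without WT library 1, 0.0964 without WT library 2 and 0.0936 after background subtraction. GTT-3, with the lowest WT level, had 2.72% and 2.75% in PUS1 KO and 6.42% and 6.92% in WT, a change of -3.93 points. The PUS1 KO level of GTT-3 was thus 0.410 of its WT level, the highest such ratio at this position, while that of GTT-26 was 0.0835. In the order of WT means, GTT-1, GTT-4, GTT-24 and GTT-7 overlapped their neighbours' ranges, a gap separated GTT-7 from GTT-2, the next 5 overlapped from one to the next, and GTT-3 stood apart below GTT-26. The authors' deposited table labels all 10 sites PUS1-dependent.

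**Figure D2:**
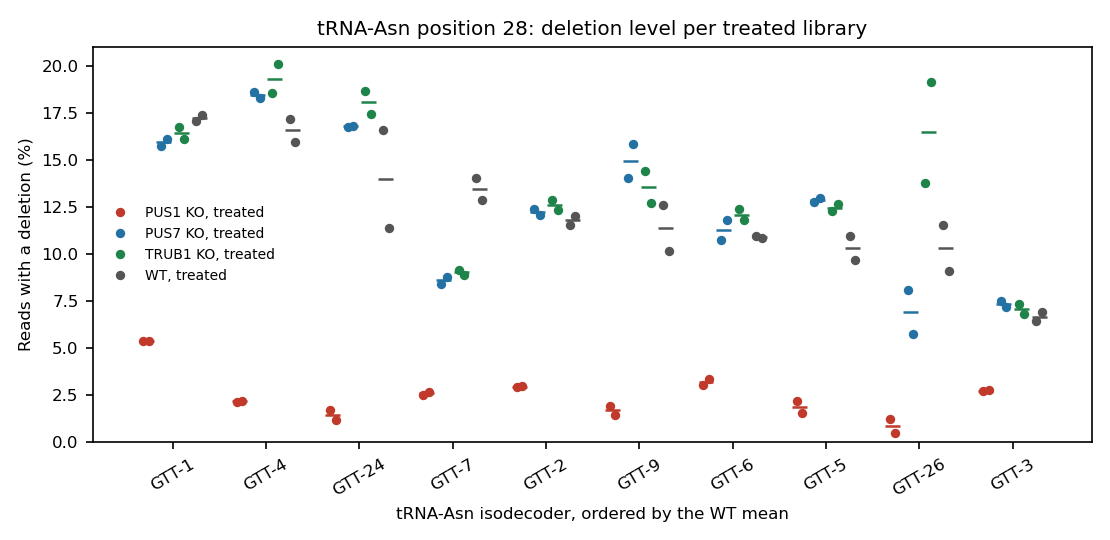
Share of reads with a deletion at position 28 (%) for 10 tRNA-Asn isodecoders, ordered by the WT mean. Dots are the 2 treated libraries of each genotype and bars their means. The PUS1 KO dots lie below 5.4% at every isodecoder, and the PUS7 KO and TRUB1 KO dots lie near or above WT except at GTT-7 and GTT-1 and, for PUS7 KO, at GTT-26.

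In PUS7 KO the position-28 sites ranged between 6.94% and 18.5% and in TRUB1 KO between 7.07% and 19.3%. In PUS7 KO, 6 of the 10 had both libraries above both WT libraries and 3 had both below, where 25.7% and 29.3% of all tested sites did so. In TRUB1 KO, 7 had both libraries above WT and 2 had both below, where 25.2% and 44.7% of all tested sites did so. None of the 10 was called in either KO, and the untreated levels at position 28 were at most 0.307% in any genotype. Set against other tRNAs by the distance between medians over the 4 genotypes, the nearest of 137 groups of isoacceptor and position were position 28 of tRNA-Ser-CGA and position 27 of tRNA-Thr-CGT. Their medians were 1.40% and 0.728% in PUS1 KO and 15.8% and 15.3% in WT, against tRNA-Asn medians of 2.37% in PUS1 KO and 11.6% in WT.

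Position 20 lies in the D loop, and each of its 4 tRNA-Asn sites is listed as bases 20 and 21 together. A deletion there is thus not placed on 1 base. The untreated libraries carried many deletions at position 20. Untreated levels were 31.5% to 55.1% in PUS1 KO, 35.5% to 43.0% in PUS7 KO, 35.4% to 46.8% in TRUB1 KO and 34.2% to 44.0% in WT. At the 28 position-20 sites of other tRNAs the median untreated level was 0.827% in WT and the highest 29.4%. Of those 28 sites 13 were called lower in PUS7 KO, with a median treated level of 3.99% in PUS7 KO and 36.5% in WT. Their median treated change was -4.44 points in PUS7 KO, with a range from -89.3 to 0.442 points. It was -2.06 points in PUS1 KO and 0.174 points in TRUB1 KO. Treated levels of tRNA-Asn exceeded untreated ones by 3.01 to 9.10 points in PUS1 KO, 0.834 to 12.6 in PUS7 KO, 4.42 to 10.8 in TRUB1 KO and 7.50 to 17.6 in WT. Most of the treated deletion share at position 20 was therefore also present without the reagent, and the level cannot be read as a Ψ level alone. With treated against untreated tested at the same thresholds, 0 of 4 sites were called above background in PUS1 KO, 1 in PUS7 KO, 1 in TRUB1 KO and 3 in WT. Over all 29 tRNA-Asn sites the counts were 12 in PUS1 KO, 20 in PUS7 KO, 21 in TRUB1 KO and 24 in WT, where 78.9%, 80%, 91% and 92% of all tested sites were called. The sites are those found in WT, which can favour a higher count in WT than in a KO.

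GTT-3 had 39.2% and 38.3% in PUS1 KO, 48.1% and 47.1% in PUS7 KO, 49.3% and 50.3% in TRUB1 KO, and 51.4% and 54.2% in WT. The PUS1 KO libraries were the lowest and did not overlap any other genotype, and the PUS1 KO change was -14.1 ± 1.34 points (adjusted p = 0.000701). Its untreated level was 35.7% in PUS1 KO (95% Wilson interval 35.3 to 36.1) and 39.2% in WT (38.9 to 39.6). With untreated levels subtracted in each genotype, the PUS1 KO change was -10.5 points (limma over 12 libraries, adjusted p = 0.00670). GTT-2, with the lowest WT level, had 35.2% and 34.2% in PUS1 KO and 41.2% and 42.1% in WT, a change of -6.96 ± 0.979 points (adjusted p = 0.00291) that did not reach 10 points. Subtracting the untreated levels left -4.34 points (adjusted p = 0.0218). In PUS7 KO this site had 36.5% and 36.1% in treated libraries and 35.5% in the untreated one, a difference of 0.834 points (adjusted p = 0.332), and the background-subtracted change against WT was -6.66 points (adjusted p = 0.00538).

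GTT-1 had 48.7% and 47.7% in PUS1 KO, 45.2% and 43.9% in PUS7 KO, 48.2% and 47.9% in TRUB1 KO, and 50.7% and 52.4% in WT. The PUS7 KO change was -7.01 ± 1.45 points (adjusted p = 0.0641), and the other 2 changes were -3.40 and -3.52 points. GTT-9, with the highest WT level, had 59.3% and 56.9% in PUS1 KO, 55.3% and 52.1% in PUS7 KO, 58.6% and 56.7% in TRUB1 KO, and 60.6% and 62.7% in WT. Its treated change in PUS1 KO was -3.54 ± 1.66 points (adjusted p = 0.134), which is no call. Its untreated level was 55.1% in PUS1 KO (1655 of 3005 reads, 95% Wilson interval 53.3 to 56.8) and 44.0% in WT (42.8 to 45.3). The background-subtracted change was -14.6 points (adjusted p = 0.00670), of which the treated pair contributed -3.54 points and the single untreated libraries the rest.

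**Figure D3:**
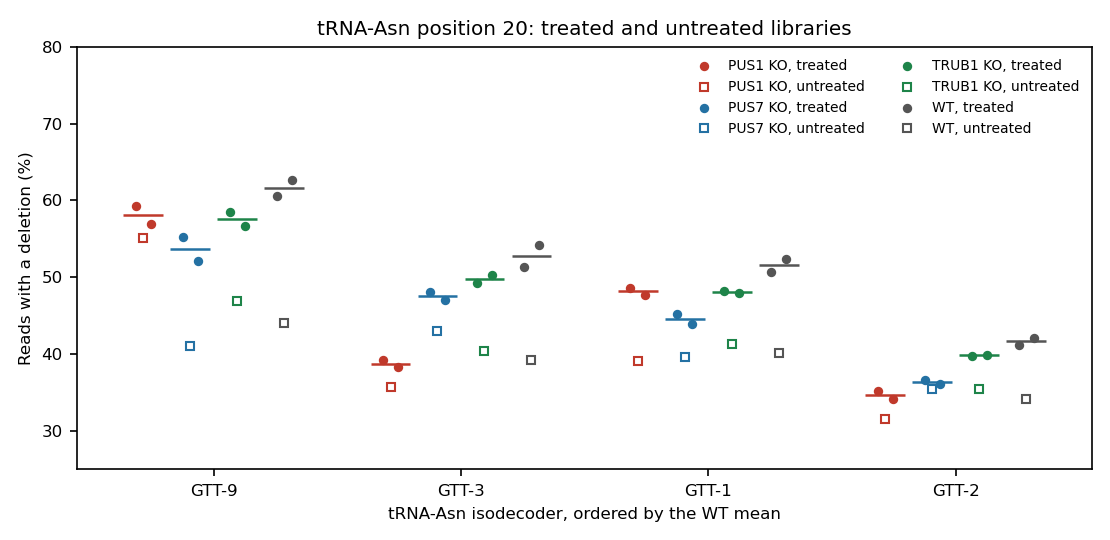
Share of reads with a deletion at position 20 (%) for 4 tRNA-Asn isodecoders, ordered by the WT mean, on an axis that starts at 25%. Dots are the 2 treated libraries, bars their means and open squares the single untreated library of each genotype. Treated WT dots are the highest of the 4 genotypes at each isodecoder, and untreated squares lie 0.834 to 17.6 points below the treated means.

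All 4 position-20 sites had both KO libraries below both WT libraries in each of the 3 KOs, where 39.9%, 29.3% and 44.7% of all tested sites did so in PUS1 KO, PUS7 KO and TRUB1 KO, and the 3 counts rest on the same WT pair. The background-subtracted level was also below WT at all 4 in each KO. Those 3 counts rest on the same WT pair and the single untreated WT library, and the share of all tested sites is not given. Over all 29 tRNA-Asn sites, the background-subtracted change was called lower at 7 sites in PUS1 KO, where 16% of all tested sites were lower, at 0 in PUS7 KO, where 10.9% were, and at 3 in TRUB1 KO, where 10.3% were. It was called higher at none of the 29 in limma, where 7.14%, 3.29% and 0.857% of all tested sites were higher in the same order. GTT-3 was the single treated call among the 12 site-by-KO comparisons at this position. The authors' deposited tables label GTT-2, GTT-3 and GTT-9 PUS1-dependent and GTT-1, GTT-2 and GTT-3 PUS7-dependent at position 20. Of those 6 labels, 1 matched a call made here. The nearest other group by treated levels over the 4 genotypes was position e1 of tRNA-Leu-TAG, 8.82 points away, followed by position 39 of tRNA-Leu-AAG. Untreated levels were not part of this distance, so it does not compare Ψ levels alone.

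Position 39, by its label in the 3′ strand of the anticodon stem, is listed for a single tRNA-Asn, GTT-9. The GTT-9 genes lie at chr1:145475381-145475454 and chr1:148048516-148048589 (RefSeq, GRCh38.p14). The site is base 41 of GTT-9. In GTT-4 and GTT-6, base 41 is C and counts as position 40 from the anticodon. The GTT-9 sequence was not available, so the label is used as deposited, and its match with position 39 of other tRNAs was not checked. GTT-9 had 20.8% and 21.1% in PUS1 KO, 39.8% and 38.3% in PUS7 KO, 33.1% and 33.9% in TRUB1 KO, and 46.1% and 45.1% in WT. The 4 genotypes did not overlap, with WT highest and PUS1 KO lowest. The PUS1 KO change was -24.7 ± 1.59 points (adjusted p = 0.000219), the only tRNA-Asn change over 20 points that was called. The TRUB1 KO change was -12.1 ± 1.72 points (adjusted p = 0.00797). That call was lost without WT library 1 (adjusted p = 0.113) and without WT library 2 (adjusted p = 0.0868), with changes of -11.6 and -12.6 points. The PUS7 KO change was -6.54 ± 1.52 points (adjusted p = 0.0813). Untreated levels were 1.44% in PUS1 KO, 0.546% in PUS7 KO, 0.649% in TRUB1 KO and 0.645% in WT, so subtracting them left -25.4 points in PUS1 KO and -12.1 points in TRUB1 KO.

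Other tRNAs at position 39 had a median of 73.2% in PUS1 KO and 60.3% in WT, with 27 of 117 tested sites called higher and 1 lower. Their median change was 3.41 points in PUS1 KO and 0.0489 points in TRUB1 KO. The authors' deposited tables label position 39 of GTT-9 PUS1-dependent and TRUB1-independent. PUS1 KO had few reads of GTT-9. At position 55 GTT-9 took 0.357% and 0.341% of all tRNA-Asn reads in treated PUS1 KO libraries, 1.116% and 1.04% in PUS7 KO, 1.05% and 1.07% in TRUB1 KO, and 1.08% and 1.08% in WT. In untreated libraries the share was 0.643% in PUS1 KO, 2.36% in PUS7 KO, 2.11% in TRUB1 KO and 2.43% in WT. GTT-6 took 2.96% in untreated PUS1 KO and 3.16% in untreated WT. The part of the lower read share in the GTT-9 levels was not tested.

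The read coverage at position 20 differed between PUS1 KO and WT at all 4 isodecoders. For GTT-9, reads covering position 20 came to 116% and 131% of those covering position 55 in treated PUS1 KO libraries, against 16.5% and 16.0% in WT, and the untreated values were 37.9% in PUS1 KO and 21.6% in WT. In PUS1 KO, more treated reads of GTT-9 were thus counted at position 20 than at position 55. The treated shares were 22.8% and 22.97% in PUS1 KO and 6.76% and 7.61% in WT for GTT-1, and 6.996% and 7.51% in PUS1 KO and 1.38% and 1.39% in WT for GTT-2. GTT-3, the position-20 site called lower in PUS1 KO, had 4.04% and 4.53% in PUS1 KO and 0.853% and 0.865% in WT. At position 20 of 28 other tRNAs the median share was 23.3% and 22.8% in PUS1 KO and 18.6% and 21.4% in WT. The part of these shares in the position-20 levels was not tested.

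**Figure D4:**
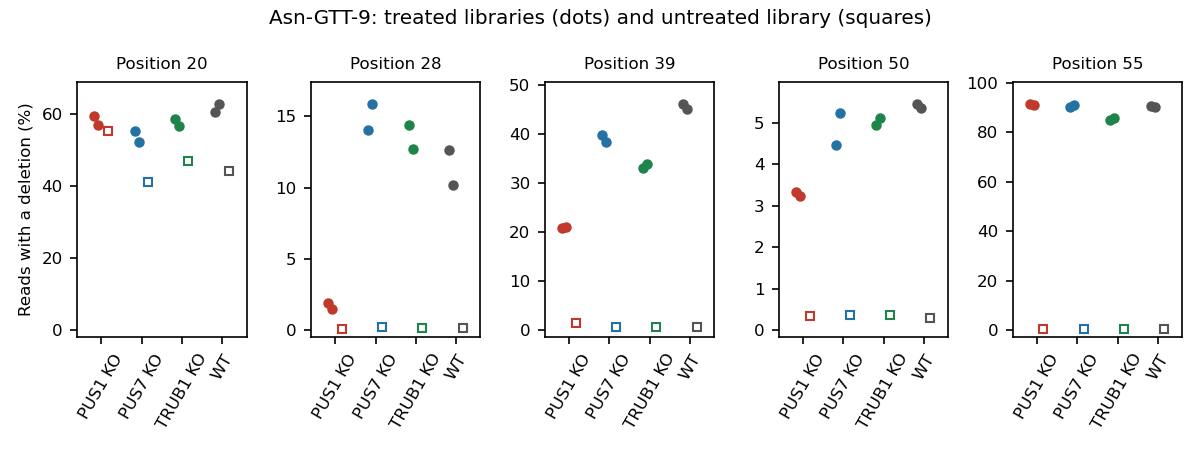
Share of reads with a deletion (%) at the 5 listed positions of GTT-9, each panel with its own axis. Dots are the 2 treated libraries and open squares the untreated library of each genotype. PUS1 KO is lowest at positions 28, 39 and 50, TRUB1 KO is lowest at position 55, and the untreated squares are near 0 except at position 20.

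Position 50, in the T arm by its label, is listed for GTT-6 and GTT-9. GTT-9 had 3.32% and 3.24% in PUS1 KO, 4.46% and 5.23% in PUS7 KO, 4.94% and 5.10% in TRUB1 KO, and 5.45% and 5.37% in WT. The PUS1 KO change was -2.13 ± 0.342 points (adjusted p = 0.00679), below the size asked of a call. GTT-6 had 5.99% and 5.92% in PUS1 KO, 6.13% and 6.24% in PUS7 KO, 6.12% and 5.86% in TRUB1 KO, and 6.08% and 6.31% in WT. Its changes were at most 0.240 points in size, with an SE of 0.242 in PUS1 KO, and no adjusted p was under 0.05. The 8 position-50 sites of other tRNAs had a median of 3.61% in PUS7 KO and 29.3% in WT, whereas the tRNA-Asn medians were 5.51% in PUS7 KO and 5.80% in WT. The median change in PUS7 KO was -16.8 points at those 8 sites and -0.288 points at tRNA-Asn.

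Position 64, in the 3′ strand of the T stem, is listed for GTT-6 and for no other cytosolic tRNA. It had 20.9% and 20.3% in PUS1 KO, 22.8% and 22.3% in PUS7 KO, 23.7% and 23.3% in TRUB1 KO, and 21.7% and 22.01% in WT. Untreated levels were 13.04% in PUS1 KO, 13.03% in PUS7 KO, 14.95% in TRUB1 KO and 12.7% in WT (95% Wilson interval 12.3 to 13.2). The treated level was thus 7.56 to 9.52 points above the untreated one in the 4 genotypes, and no KO was called. The TRUB1 KO treated change of 1.64 points became -0.573 points with untreated levels subtracted (adjusted p = 0.778).

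Position 55 lies in the T loop and is listed for all isodecoders except GTT-26. WT means lay between 89.3% and 94.6% apart from GTT-24, which had 78.4% ± 7.33 (SD, n = 2). Untreated WT levels were at most 1.95% apart from GTT-24, with 13.6% (14 of 103 reads, 95% Wilson interval 8.27 to 21.5). GTT-7 had the highest WT level, 94.6% ± 0.0600, and GTT-4 the lowest of the 10 with over 100 reads, 89.3% ± 0.1998.

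In TRUB1 KO all 11 position-55 sites were below both WT libraries, where 44.7% of all tested sites were, and 9 had an adjusted p under 0.05, where 28.5% of all tested sites were lower at that p. Most changes were under 10 points, and 1 of 11 was called, against 76 of 227 at position 55 of other tRNAs. The median change was -7.11 points, and -4.67 points in other tRNAs. GTT-25 had 84.0% and 83.0% in TRUB1 KO and 94.3% and 94.4% in WT, a change of -10.9 ± 0.651 points (adjusted p = 0.000598). Its gene, TRN-GTT25-1, has 75 bases and its site is listed 1 base further along than in the others. GTT-7 had 84.4% and 85.1% in TRUB1 KO and 94.6% and 94.6% in WT, a change of -9.86 ± 0.381 points (adjusted p = 0.000141) just outside the 10 points, and it was called without TRUB1 KO library 2 (-10.2 points). Both isodecoders kept levels above 80% in TRUB1 KO.

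GTT-24 had 52.5% and 50% in TRUB1 KO, 88.2% and 85.0% in PUS1 KO, 78.8% and 83.7% in PUS7 KO, and 73.2% and 83.6% in WT. The TRUB1 KO libraries were the lowest, and the change of -27.2 ± 7.90 points had an adjusted p of 0.0802, so it was not called on 61 to 122 reads. Limma on percentage points (adjusted p = 0.0137), Fisher's exact test on summed reads (adjusted p = 5.84e-07) and a joint fit of all 8 treated libraries (adjusted p = 0.0365) called it. At the other end, GTT-1 had 93.0% and 93.1% in TRUB1 KO and 94.0% and 93.6% in WT, a change of -0.703 ± 0.238 points (adjusted p = 0.0948). The remaining 7 changes in TRUB1 KO ran from -7.77 points at GTT-6 to -4.86 points at GTT-9. In TRUB1 KO the levels of all isodecoders other than GTT-1 and GTT-24 thus lay between 83.0% and 86.8%, and GTT-1 stood above them at 93.1%. A test of GTT-1 against the other isodecoders was not made.

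**Figure D5:**
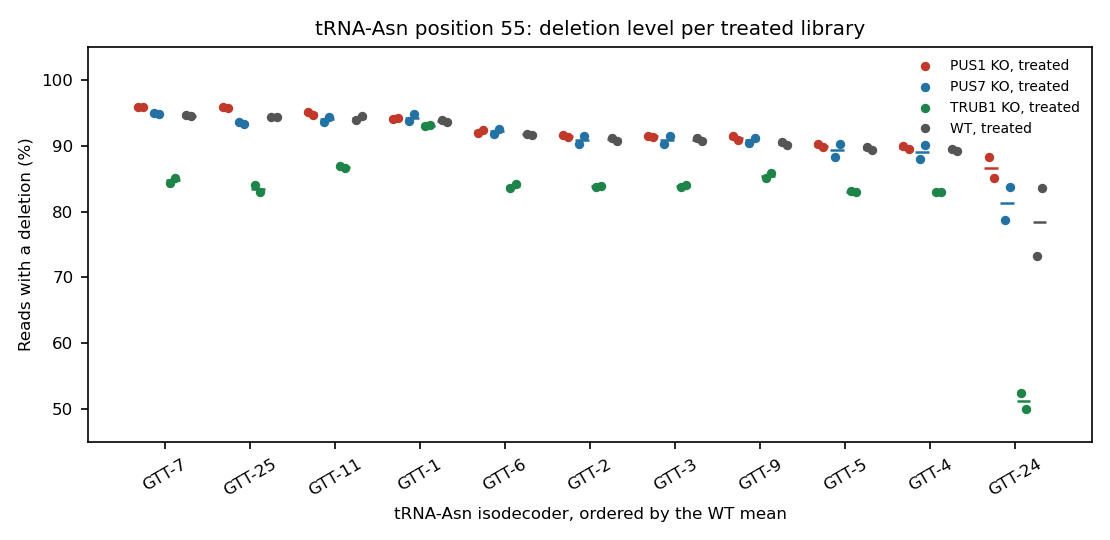
Share of reads with a deletion at position 55 (%) for 11 tRNA-Asn isodecoders, ordered by the WT mean, on an axis that starts at 45%. Dots are the 2 treated libraries of each genotype and bars their means. The TRUB1 KO dots are the lowest at each isodecoder, with GTT-1 at 93.1% close to WT and GTT-24 at 51.2% far below.

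In PUS1 KO, 10 of the 11 position-55 sites were above both WT libraries, where 40.8% of all tested sites were. The changes ran from 0.383 to 8.22 points, with the largest at the thinly covered GTT-24 (8.22 ± 5.81 points, adjusted p = 0.264), and 1.41 points or less elsewhere. An adjusted p under 0.05 was reached by GTT-7 (1.25 points, adjusted p = 0.00432), GTT-25 (1.41 points, adjusted p = 0.0257) and GTT-2 (0.549 points, adjusted p = 0.0315), and 26.7% of all tested sites were higher at that p. In PUS7 KO the 11 changes ran from -0.885 to 2.82 points and none had an adjusted p under 0.05. At that p, 0 of the 29 tRNA-Asn sites were higher in PUS7 KO, where 6.86% of all tested sites were, and 0 in TRUB1 KO, where 5.56% were. The authors' deposited tables label 0 of the 29 tRNA-Asn sites TRUB1-dependent. The groups nearest to tRNA-Asn at position 55 over the 4 genotypes were position 55 of tRNA-Phe-GAA, 1.85 points away, and of tRNA-Gly-GCC, 3.66 points away. Their TRUB1 KO medians were 82.5% and 83.4% against WT medians of 90.1% and 93.1%, where tRNA-Asn had 83.9% in TRUB1 KO and 91.0% in WT.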

How the data were processed

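Small RNA libraries of PUS1 KO, PUS7 KO, TRUB1 KO and WT HEK293T cells were used, 12 of 27 samples. Per the file headers, the deposited tables give counts of reads with a deletion and of reads covering each site in each library, the deletion rate in percent, and, for the KOs, a label of dependence, which is text of another (other) kind whose rule is not given in the sources used here. Rates equalled the ratio of the counts within 0.001 points at all 705 sites. Tools listed in the submitters' processing notes are BWA, cutadapt, SAMtools 1.14 and UMI-tools 1.0.0, with the build GRCh38, and their roles are not stated. Filters on sites, the counting of deletions and the treatment of reads that map to several isodecoders are not given. The KO tables list the sites found in WT, so a site present in a KO alone is not seen.

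Levels are deleted over covering reads, as mean and SD of 2 treated libraries. Sites covered by 20 or more reads in all treated libraries compared were fitted with a quasi-binomial model (deleted, undeleted). Its dispersion, at least 1, was moderated over all sites with squeezeVar of limma 3.58.1 in R 4.3.3. F tests were two-sided, and p-values were Benjamini-Hochberg adjusted over 700 or 701 cytosolic sites. All 29 tRNA-Asn sites were tested in each KO. Calls needed an adjusted p under 0.05 and 10 points. Treated and untreated libraries were compared in the same model over 12 libraries, and background-subtracted changes were tested with limma on percentage points. The lone untreated library of a genotype was assumed to vary like the treated pairs. The code was tested on simulated counts. Wilson intervals (95%) cover counting error only. The sites named were those called in a KO, those with an untreated level above 5%, the highest and lowest in WT at each position, lone members and those labelled dependent by the authors, with the 2 nearest groups of other tRNAs. Position 55 of GTT-1, GTT-2, GTT-4, GTT-6 and GTT-9 was named after its values were seen. The members and the lists were chosen with earlier results of these data known. Alternatives tried were other size thresholds, coverage minimums of 1 and 50 reads, limma, Fisher's exact test, background subtraction, a joint fit, the replicate block and leaving out each library.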

Additional observations from a re-analysis of the deposited data

Results flagged for a closer look

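Changes against WT that remained after the untreated level was subtracted in each genotype, with an adjusted p under 0.05 in limma and at least 10 points, were found at 7 tRNA-Asn sites in PUS1 KO, where 16% of all tested sites were lower by this rule, and at 3 in TRUB1 KO, where 10.3% were. PUS7 KO had 0, where 10.9% of all were lower and 3.29% higher. Each rests on a single untreated library per genotype.

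In PUS1 KO the changes at position 28 were -12.1 points at GTT-1 (adjusted p = 0.000101), -14.5 points at GTT-4 (adjusted p = 0.000258), -11.2 points at GTT-7 (adjusted p = 0.000287) and -12.5 points at GTT-24 (adjusted p = 0.0187). The change at position 39 of GTT-9 was -25.4 points (adjusted p = 2.37e-05). At position 20, GTT-3 changed by -10.5 points and GTT-9 by -14.6 points (adjusted p = 0.00670 for each), and GTT-9 was not called on treated libraries. In TRUB1 KO position 39 of GTT-9 changed by -12.1 points (adjusted p = 0.00115), position 55 of GTT-25 by -11.0 points (adjusted p = 0.000498) and position 55 of GTT-24 by -27.4 points (adjusted p = 0.0299). GTT-24 was not called on treated libraries.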

How the results depend on the processing

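No tRNA-Asn result that was called changed its direction under any alternative tried. Of the values recomputed for single sites, 249 kept their side of the thresholds, 14 newly passed them and 10 no longer did. The counts depended on the size asked of a call. With at least 5 points, PUS1 KO had 12 sites lower and TRUB1 KO had 9, and with at least 20 points they had 1 and 0. Treated levels above untreated ones by at least 20 points were found at 12 sites each in PUS7 KO, TRUB1 KO and WT, against 20, 21 and 24 at 10 points. Shares of all tested sites are not given at 5 or 20 points, so these counts cannot be set against all sites. Leaving out 1 library gave 5 to 7 sites lower in PUS1 KO and 1 to 3 in TRUB1 KO, with 1 left without either WT library. In the fits with the replicate number as a block, 6, 0 and 2 sites were lower in PUS1 KO, PUS7 KO and TRUB1 KO, as without it, and the block changed no call. Same-numbered libraries did not deviate together (r of -0.208, 0.0798 and -0.125 over 700 sites in that order). Each genotype gives only 1 contrast between its treated libraries, and the sites are not independent. The r values therefore cannot settle whether the numbers pair libraries. With the numbers crossed, chosen after seeing the data, 6 sites were lower in PUS1 KO and 2 in TRUB1 KO. Depth limits position 28 of GTT-26 and position 55 of GTT-24, which had 52 to 123 reads in treated WT, PUS7 KO and TRUB1 KO libraries.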

Other observations

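Untreated deletions at position 28 were rarer in WT than in any KO at some tRNAs. This was looked at after the values were seen. Of 560 sites with at least 20 deleted reads in the untreated library of each KO, 15 had a WT untreated level under 20% of the lowest KO level. All 15 were at position 28, where 65 sites had that depth, and they were 3 tRNA-Asn sites (GTT-1, GTT-6 and GTT-7) and 12 tRNA-Cys-GCA sites. The other 2 tRNA-Asn sites at position 28 with that depth, GTT-2 and GTT-3, had 0.307% and 0.307% in PUS1 KO against 0.297% and 0.282% in WT.

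Reads covering position 28, as a percentage of those covering position 55, were higher in both treated PUS1 KO libraries than in both WT libraries at 8 of 8 isodecoders other than GTT-24, against 5 of 8 in PUS7 KO and 2 of 8 in TRUB1 KO. At 72 other tRNAs the median share was 40.2% and 41.8% in treated PUS1 KO libraries against 15.1% and 17.5% in WT, so the difference was not seen in tRNA-Asn alone. Their median was 26.8% and 25.9% in PUS7 KO and 23.6% and 23.9% in TRUB1 KO, so WT was the lowest genotype there. A count of other tRNAs with both KO libraries above both WT libraries is not given. The PUS1 KO mean was 1.57 times the WT mean at GTT-3 and 11.8 times at GTT-9. In untreated libraries the median over tRNA-Asn was 55.5% in PUS1 KO and 53.5% in WT. In WT, GTT-6 had 6.19% in treated library 1 and 18.2% in library 2. For position 28 of GTT-6 in WT library 2, the authors' deposited difference between treated and untreated rates is 10.6 points, while the rates beside it differ by 10.9 points. It is the 1 such site of 705. Position 28 of GTT-24 had 514% to 4098% of the reads of its position 55 in treated libraries.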
